A study of Saccharomyces cerevisiae with 7 samples.

Results

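The genes described here encode 10 chromatin cofactors that are known to act at promoters of phosphate-response (PHO) genes in budding yeast. They are GCN5, ADA2, SPT7 and SPT20 of the SAGA coactivator, the histone chaperone gene ASF1, and 5 genes of chromatin remodellers other than SWI/SNF, namely INO80, ISW1, CHD1, STH1 and RSC2. A probe set belonged to the set if the platform annotation gave it one of these 10 symbols, a rule that uses no measured value. The 10 genes themselves were chosen with earlier results of these data known. All 10 genes were found, each with 1 probe set, among the 5449 genes (5498 probe sets) that were compared.

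Transcript levels were measured on Affymetrix Yeast Genome 2.0 arrays, with 1 array for each of 4 wild-type and 3 hmt1∆ biological replicates. The wild type was BY4741, a haploid strain of mating type a with the alleles his3∆1, leu2∆0, met15∆0 and ura3∆0. The other strain shared that background and carried KANMX4 in place of HMT1, whose product is the major enzyme that methylates arginine residues of proteins in this yeast. The labels name a rich, a phosphate-replete and a phosphate-depleted medium for the study and do not assign one to these cultures, and they do not say whether the replicates of a strain came from 1 clone or from several.

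At rest, the PHO5 promoter is covered by positioned nucleosomes, and on phosphate starvation the activators Pho4 and Pho2 recruit cofactors that acetylate, slide and evict them. SAGA acetylates histone H3 through Gcn5, histone chaperones accept the displaced histones, and remodellers use ATP to move or remove nucleosomes. The study's title concerns phosphate-associated genes after loss of arginine methylation. The comparison here asks whether the transcripts of these cofactors differed between the strains.

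Levels below are log2 values per probe set after RMA normalization, and every difference is the mean of the deletion arrays less that of the wild-type arrays. HMT1 itself, which checks the labels, had a wild-type level of 11.84 ± 0.22 (SD, n = 4). Its level without the gene was 4.77 ± 0.26 (SD, n = 3), within the 3.46 to 5.13 of 17 control probe sets without a yeast target. That makes it at least 104-fold lower (limma adjusted p = 4.89e-07). The 7 a-specific mating genes read 8.19 to 13.5, above those controls, and none passed the test, with MFA2, an a pheromone gene, at 0.12 (SE 0.09, limma adjusted p = 0.840). Of the 4 alpha-specific genes, MF(ALPHA)1, the main alpha pheromone gene, lay at 3.95 to 4.14, in the range of the controls. The other 3 lay above the controls on every array, with MF(ALPHA)2 at 5.70 to 6.19, the receptor gene STE3 at 6.54 to 7.20 and SAG1, the alpha agglutinin gene, at 8.77 to 9.15. SAG1 had a difference of -0.18 (SE 0.09, adjusted p = 0.796). Of 10 meiotic genes, 6 were higher and 4 lower, with a median of 0.060. Only 1 of the 10 passed, HOP1, whose product lies along meiotic chromosomes, against 0.2% of all tested probe sets. HOP1 rose by 0.98 (SE 0.11, adjusted p = 0.0246), a call that ended in 5 of 7 fits without 1 array (up to 0.170). Array medians ran from 9.95 to 9.98. The lowest value of any cofactor gene on any array was 9.37, above all those controls.

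The wild-type arrays were not uniform. A group of 5 reporter probe sets had no gene name, and their target sequence was not examined here. They lay between 3.18 and 4.44 on the arrays of wild-type replicates 1 and 3, and between 6.16 and 12.6 on the remaining 5. All 7 a-specific genes were higher in both wild-type replicates 2 and 4 than in both replicates 1 and 3. That order held for 13.1% of all tested probe sets, and the opposite order for 22.5%. The mean level of the a-specific genes was 12.3 to 12.4 in the first pair, 11.5 to 11.6 in the second and 12.0 to 12.1 in the deletion arrays. Differences for the cofactor genes are therefore given against each pair as well.

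None of the 10 cofactor genes passed the test between the strains. In limma, 0 of 10 had an adjusted p under 0.05, against 0.2% of all tested probe sets (11 of 5498). At an unadjusted p under 0.05 there was 1 of 10, STH1, against 6.64% of all probe sets. Their differences ran from -0.10 for INO80 to 0.17 for STH1. Their median was 0.019, and the median of all tested probe sets was 0.0065. The median of the 10 moved when single arrays were left out, to -0.00060 (wild-type replicate 2), 0.0040 (deletion replicate 1), 0.010 (wild-type replicate 4), 0.050 (deletion replicate 3) and 0.056 (wild-type replicate 3). The 95% confidence intervals of the 10 differences all lay between -0.31 and 0.36, which is 0.805-fold to 1.28-fold, so larger changes in either direction fell outside every one of them. A change in transcript per cell and a change in the share of cells that carry the transcript cannot be told apart in RNA from whole cultures.

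**Figure D1:**
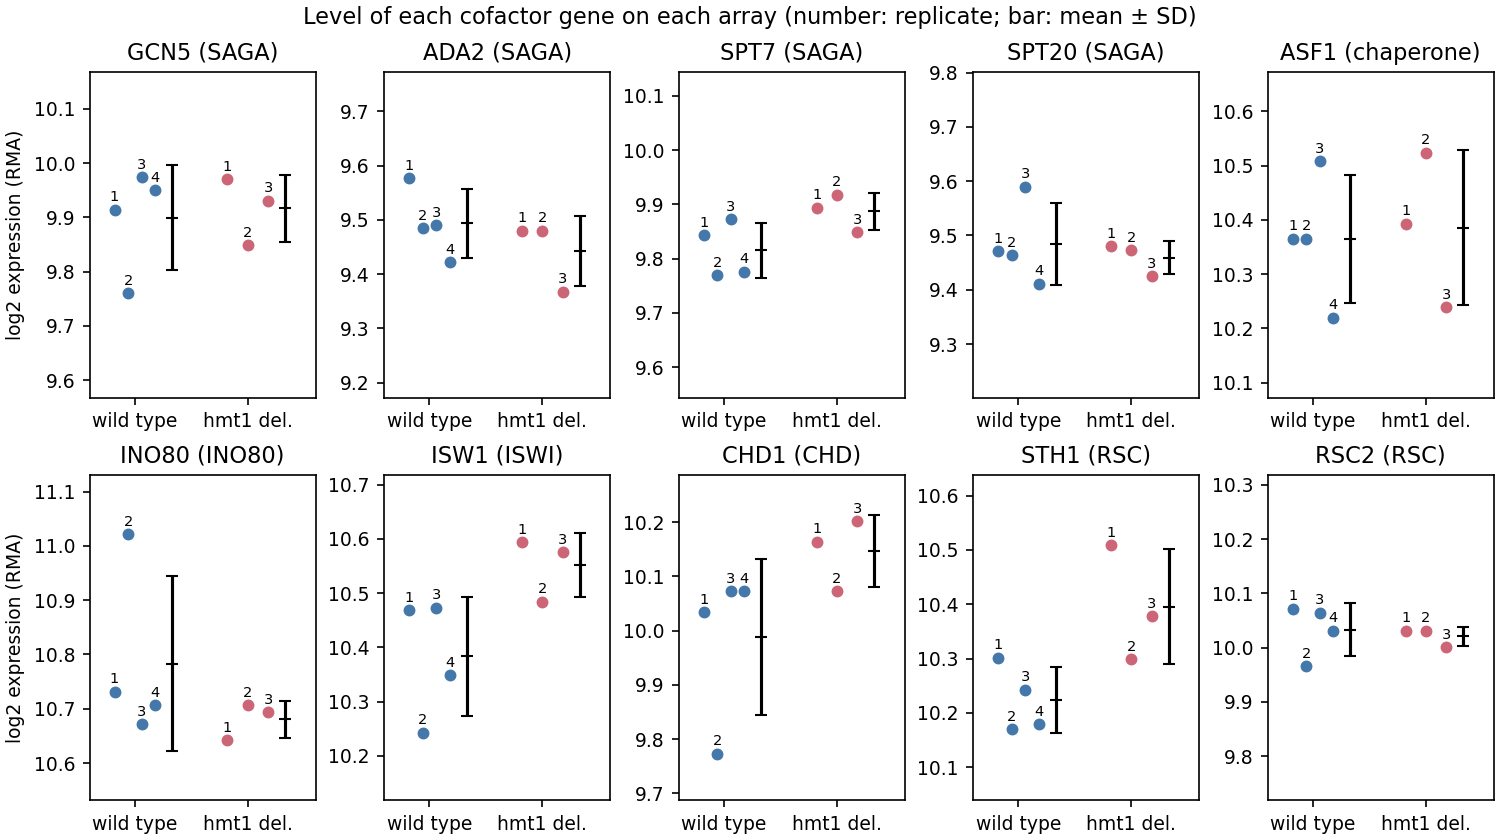
Log2 expression of the 10 cofactor genes (y axis, RMA values; every panel spans 0.6) on 4 wild-type arrays (blue) and 3 deletion arrays (red). Points are arrays numbered by replicate, and black bars are the mean ± SD. The groups overlap or touch for every gene except ISW1, where the lowest deletion array is 0.011 above the highest wild-type array.

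The 4 SAGA genes showed differences between -0.05 and 0.07. GCN5 (YGR252W) encodes the histone acetyltransferase of the complex. It read 9.91, 9.76, 9.97 and 9.95 in wild-type replicates 1 to 4, and 9.97, 9.85 and 9.93 in deletion replicates 1 to 3. The deletion values fell inside the wild-type range, and only wild-type replicate 2 was below all of them. The difference was 0.017 (SE 0.070, 95% interval -0.15 to 0.18, limma adjusted p = 0.961).

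ADA2 (YDR448W), whose product binds Gcn5 and supports its activity on nucleosomes, read 9.58, 9.48, 9.49 and 9.42 in the wild type and 9.48, 9.48 and 9.37 in the deletion strain. Wild-type replicate 1 stood highest and deletion replicate 3 lowest, with the other 5 arrays between them. All 3 deletion arrays were below the wild-type mean, and the difference was -0.051 (SE 0.062, interval -0.19 to 0.09, adjusted p = 0.864). It was -0.013 without deletion replicate 3 and -0.023 without wild-type replicate 1.

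SPT7 (YBR081C) encodes a bromodomain subunit around which SAGA is assembled. Its levels were 9.84, 9.77, 9.87 and 9.78 in the wild type and 9.89, 9.92 and 9.85 in the deletion strain. Wild-type replicates 1, 2 and 4 were below all deletion arrays, and wild-type replicate 3 was inside their range. The difference was 0.072 (SE 0.055, interval -0.06 to 0.20, adjusted p = 0.840). SPT20 (YOL148C), which like SPT7 is needed for the complex to hold together, read 9.47, 9.46, 9.59 and 9.41 in the wild type and 9.48, 9.47 and 9.42 in the deletion strain. The deletion arrays sat within the wild-type range, and the difference was -0.025 (SE 0.061, interval -0.17 to 0.12, adjusted p = 0.927).

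ASF1 (YJL115W), the chaperone of histones H3 and H4 that takes part in histone eviction at PHO5, varied as much within each strain as between them. Its levels were 10.37, 10.37, 10.51 and 10.22 in the wild type and 10.39, 10.52 and 10.24 in the deletion strain. Each strain had 1 array well above and 1 well below the rest. The difference was 0.021 (SE 0.092, interval -0.19 to 0.23, adjusted p = 0.962). Among the 10 genes ASF1 had the largest SD over the deletion arrays, 0.142, while RSC2 had the smallest, 0.017.

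Of the 4 remodeller genes that encode a catalytic ATPase, 3 were 0.16 to 0.17 higher in the deletion strain and the fourth, INO80, was 0.10 lower. INO80 (YGL150C) encodes the ATPase of the INO80 complex. It read 10.73, 11.02, 10.67 and 10.71 in the wild type and 10.64, 10.71 and 10.69 in the deletion strain. Wild-type replicate 2 was the highest array by a wide margin, and the other 6 arrays lay together. The difference was -0.10 (SE 0.09, interval -0.31 to 0.11, adjusted p = 0.840), and without wild-type replicate 2 it was -0.023.

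ISW1 (YBR245C) encodes an ATPase of the ISWI class, which spaces nucleosomes. It read 10.47, 10.24, 10.47 and 10.35 in the wild type and 10.59, 10.48 and 10.58 in the deletion strain. It was the 1 gene of the 10 whose groups did not overlap, with a gap of 0.011, while 7.64% of all tested probe sets had groups that did not overlap (3.15% with the deletion strain higher). The difference was 0.17 (SE 0.07, interval -0.0041 to 0.34, adjusted p = 0.742), or 1.12-fold.

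CHD1 (YER164W) encodes a chromodomain ATPase that also spaces nucleosomes and is found over transcribed genes. It read 10.03, 9.77, 10.07 and 10.07 in the wild type and 10.16, 10.07 and 10.20 in the deletion strain. Wild-type replicates 3 and 4 and deletion replicate 2 had the same value, so the groups touched. The difference was 0.16 (SE 0.09, interval -0.04 to 0.36, adjusted p = 0.803). It was 0.086 without wild-type replicate 2, the lowest array.

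STH1 (YIL126W) encodes the ATPase of RSC, a remodeller that is essential for growth, and RSC2 (YLR357W) encodes a bromodomain subunit that defines 1 of the forms of RSC. STH1 read 10.30, 10.17, 10.24 and 10.18 in the wild type and 10.51, 10.30 and 10.38 in the deletion strain. All deletion arrays were above wild-type replicates 2, 3 and 4, and deletion replicate 2 was 0.0031 below wild-type replicate 1. With 0.17 (SE 0.07, interval 0.01 to 0.33, adjusted p = 0.742), or 1.13-fold, STH1 had the largest difference of the 10, and 16.4% of all probe sets had a difference of at least that size.

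RSC2 read 10.07, 9.97, 10.06 and 10.03 in the wild type and 10.03, 10.03 and 10.00 in the deletion strain. Its deletion arrays lay inside the wild-type range. The difference was -0.012 (SE 0.053, interval -0.14 to 0.11, adjusted p = 0.962), the smallest in size of the 10. The RSC genes STH1 and RSC2 thus differed in the size of their measured values, and the difference between them was not tested.

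**Figure D2:**
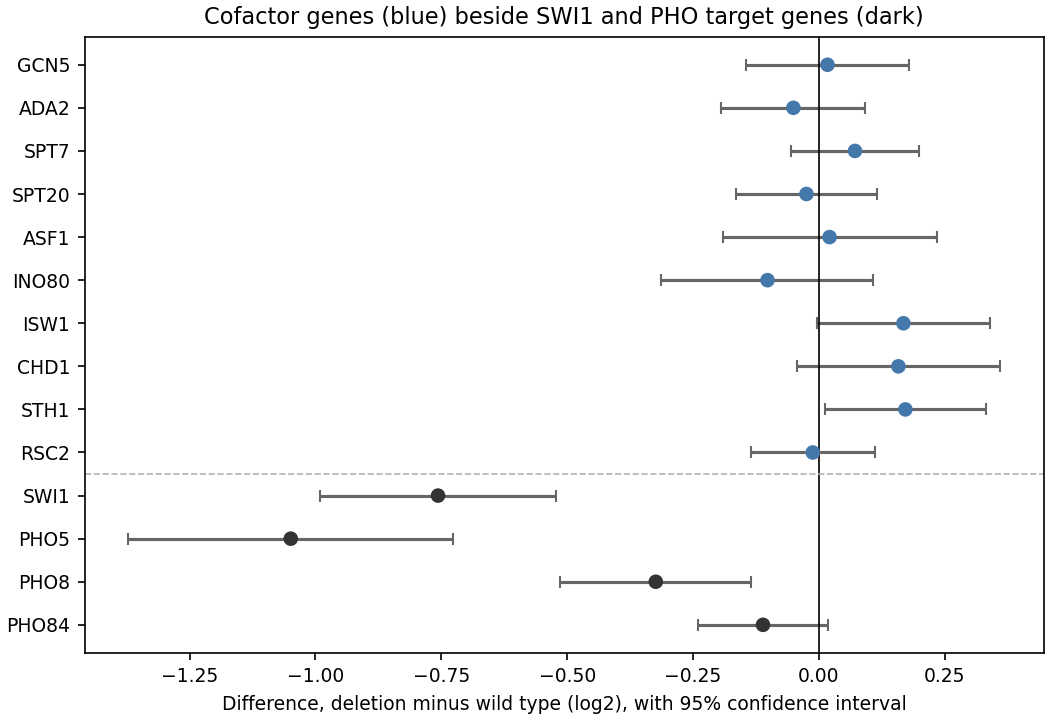
Difference between deletion and wild type (x axis, log2) with its 95% confidence interval for the 10 cofactor genes (blue) and, below the dashed line, SWI1 and the PHO genes PHO5, PHO8 and PHO84 (dark). Cofactor differences lie between -0.10 and 0.17, and SWI1 and PHO5 lie at -0.76 and -1.05.

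The size of these differences can be read beside genes at whose promoters the cofactors act. PHO5, the secreted acid phosphatase gene, read 13.32, 12.86, 13.04 and 12.75 in the wild type and 11.84, 11.88 and 12.11 without HMT1. It fell by 1.05 (SE 0.14, interval -1.37 to -0.73, limma adjusted p = 0.0494), and this interval did not overlap that of any cofactor gene. The call of PHO5 held without wild-type replicate 1 and ended without any other array (adjusted p from 0.0491 to 0.309 over the 7 fits).

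PHO8, the vacuolar alkaline phosphatase gene, was at -0.32 (SE 0.08, adjusted p = 0.410), and PHO84, the high-affinity phosphate transporter gene, at -0.11 (SE 0.06, adjusted p = 0.796). The mean level of PHO84 was 14.06 in the wild type and 13.95 in the deletion strain, and the highest value of any probe set was 14.63. In all 3 PHO genes every deletion array was below every wild-type array, as in 247 of the 5498 tested probe sets. Counting both directions, 7.64% of all tested probe sets had groups that did not overlap. Of the activator genes, PHO4 was at -0.0048 (SE 0.059, adjusted p = 0.988) and PHO2 at 0.14 (SE 0.06, adjusted p = 0.742). Neither activator gene passed the test.

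The remodeller left out of the set, SWI/SNF, held 1 gene past the test among 12 measured, against 0.2% of all tested probe sets. SWI1, a subunit with an ARID DNA-binding domain, read 9.95, 9.80, 9.78 and 9.81 in the wild type and 9.09, 8.86 and 9.28 in the deletion strain. Every deletion array was below every wild-type array. SWI1 fell by 0.76 (SE 0.10, interval -0.99 to -0.52, limma adjusted p = 0.0494), and its call ended whichever array was left out (adjusted p from 0.0972 to 0.305). The other 11 of the 12 measured SWI/SNF genes did not pass, and the list's median was 0.023 (-0.0019 to 0.045 when 1 array was left out, lowest without wild-type replicate 2). TAF14, ARP7, ARP9 and RTT102 stand in this list and in that of INO80 or RSC, since the complexes share them.

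The other genes of these complexes were compared next, together with further histone chaperone genes and NuA4. None of these 83 measured partner genes passed in limma (0 of 83, with 1 at an unadjusted p under 0.05), against 0.2% of all probe sets. Their differences ran from -0.21 to 0.19. The median was 0.043, beside 0.0065 over all tested probe sets, and 59 of the 83 were higher in the deletion strain, where 52.5% of all probe sets were. The groups did not overlap for 2 of them (2.41%, against 7.64% of all probe sets).

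Among the 18 other SAGA and ADA genes, 10 were higher and 8 lower, with a median of 0.024 (0.0060 without wild-type replicate 4, 0.056 without wild-type replicate 3). TAF6, a histone-fold subunit that SAGA shares with the general factor TFIID, was at 0.19 (SE 0.06, adjusted p = 0.611). It read 10.72, 10.58, 10.70 and 10.67 in the wild type and 10.91, 10.79 and 10.87 in the deletion strain, and the groups did not overlap. At the other end, SUS1, of the module that removes ubiquitin from histone H2B, was at -0.21 (SE 0.12, adjusted p = 0.803). SUS1 was picked for its place at the end of the range, after its value was seen.

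The 20 other histone chaperone genes, with RTT109, which acetylates histone H3 together with Asf1, had a median of 0.040, with 16 higher and 4 lower. That median was 0.0017 without wild-type replicate 2, 0.017 without wild-type replicate 4 and 0.063 and 0.070 without wild-type replicates 1 and 3. RTT109 was at 0.11 (SE 0.08, adjusted p = 0.840). The 14 other genes of the INO80 complex had 13 higher and 1 lower and a median of 0.037, which was 0.021 without wild-type replicate 2, 0.068 without wild-type replicate 1 and 0.072 without deletion replicate 2. IES2, which stimulates the Ino80 ATPase, had the smallest p among them, at 0.13 (SE 0.07, adjusted p = 0.803). Against wild-type replicates 2 and 4, 14 of the 14 were higher, and against replicates 1 and 3, 7 of the 14 were. Over all probe sets those shares were 56.9% and 45.4%, and 52.5% against all wild-type arrays.

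Partners of Isw1 and the related Isw2 complex numbered 7, with 6 higher, 1 lower and a median of 0.060, which was 0.0077 without wild-type replicate 2. The 1 that was lower was ISW2, the ATPase gene, at -0.092 (SE 0.058, adjusted p = 0.811). The 14 other measured RSC genes had 9 higher and 5 lower and a median of 0.067, which was 0.026 without wild-type replicate 2. RSC4, a subunit with bromodomains, was at 0.13 (SE 0.07, adjusted p = 0.796). RSC30 was not analysed here.

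The list for NuA4, the histone H4 acetyltransferase that acts at PHO5 as well, held 10 genes, with 5 higher and 5 lower. TRA1, ARP4 and ACT1 were counted with SAGA or INO80 and not here. The median was -0.0058 (-0.030 to 0.020 when 1 array was left out), and EAF7 was at -0.099 (SE 0.065, adjusted p = 0.824). The 8 measured core and variant histone genes were all between 0.0060 and 0.070, with none past the test and HTB2, a histone H2B gene, at 0.070 (SE 0.068, adjusted p = 0.840). Without deletion replicate 2, HTB2 was at 0.015 and the median of the 8 genes at -0.00032, from 0.029 with all arrays. HHF2 was not analysed here.

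**Figure D3:**
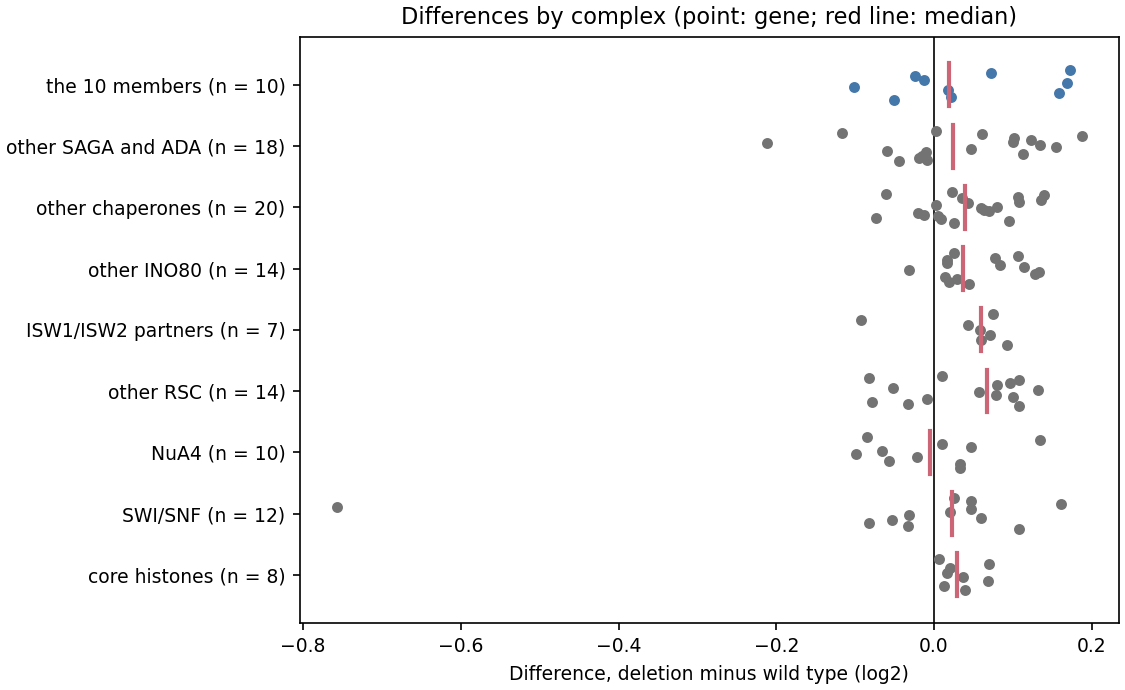
Difference between deletion and wild type (x axis, log2) of each gene, grouped by complex (rows, with the number of measured genes). Points are genes and red lines are medians. Medians lie between -0.0058 and 0.067, and SWI1 at -0.76 is the 1 point below -0.3.

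Most cofactor genes, like most tested probe sets, differed more between the pairs of wild-type arrays than between the strains. A difference between means of 2 arrays each varies more by sampling than one between means of 4 and 3. The division was also chosen with earlier results of these data known. In 9 of the 10 genes the mean of wild-type replicates 2 and 4 was below that of replicates 1 and 3, and 59.2% of all tested probe sets had that direction. INO80 had the opposite one, at 0.16. In 6 genes both arrays of the first pair were below both of the second (22.5% of all probe sets), and in none were they above (13.1%). The median difference between the pairs was -0.091 for the 10 genes, -0.10 for the 83 partner genes and -0.032 for all probe sets. In 8 of the 10 genes this difference was larger in size than that between the strains, as in 64.9% of all probe sets.

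The direction for several genes depended on the pair, which follows from the difference between the pairs and is not a separate result. Against wild-type replicates 2 and 4, 8 of the 10 genes were higher in the deletion strain (56.9% of all probe sets), with a median of 0.077. Against replicates 1 and 3, 4 were higher (45.4% of all probe sets), with a median of -0.024. Partner genes followed the same division, with 68 of 83 higher against the first pair and 32 of 83 against the second. The part of the mating-gene and reporter difference between these arrays in the cofactor values was not tested.

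ISW1, CHD1, STH1 and SPT7 were higher against either pair. ISW1 was at 0.26 against replicates 2 and 4 and at 0.080 against 1 and 3. CHD1 was at 0.22 and 0.093, STH1 at 0.22 and 0.12, and SPT7 at 0.11 and 0.029. INO80 was lower against either, at -0.18 and -0.021, as was ADA2, at -0.011 and -0.090. GCN5, SPT20, ASF1 and RSC2 were higher against replicates 2 and 4 and lower against 1 and 3. None of the 10 passed against either pair (smallest limma adjusted p 0.254 and 0.951).

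**Figure D4:**
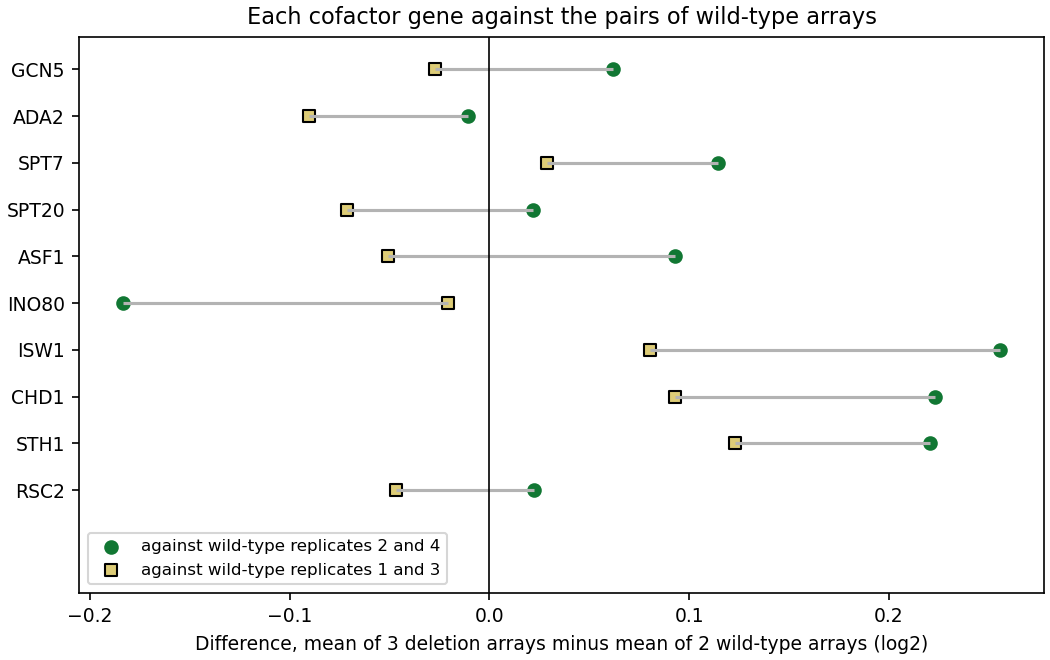
Difference of each cofactor gene between the mean of the 3 deletion arrays and the mean of a pair of wild-type arrays (x axis, log2), with wild-type replicates 2 and 4 as green circles and 1 and 3 as yellow squares. The circle is to the right of the square for 9 of 10 genes, all but INO80.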

How the data were processed

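The authors deposited log2 expression values per probe set, and the submitters' processing notes name RMA and affy 1.52.0. RMA equalizes the distribution of probe intensities over the arrays before it summarizes them, so a change in total messenger RNA cannot be seen, and differences of dim probe sets tend to be compressed. Identical values on 2 or more arrays (to 6 decimals) occurred in 5 of the 10 cofactor genes and in 26.1% of tested probe sets. The authors' probe set definition and test are not stated in the labels.

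Array columns were matched to labels by sample, with groups by genotype. Gene names came from the platform annotation, and RefSeq's R64 gene table replaced 12 outdated symbols. Of 5900 probe sets, 402 without a gene name stayed out. The comparison used limma 3.58.1 (lmFit, then eBayes, R 4.3.3), two-sided, for each probe set, with Benjamini-Hochberg adjustment over 5498 probe sets and a threshold of 0.05. Standard errors and 95% intervals come from this fit. It was tested on simulated data with independent noise of equal spread in both strains. The real data did not have that setting, with a median SD of 0.129 over wild-type and 0.071 over deletion arrays. The simulation held no division of the wild-type arrays, so it does not show how the fit handles one. The number of arrays limits the precision. Lists used the probe set with the highest mean per gene.

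Genes named were HMT1, the 10 cofactors, PHO5, PHO8, PHO84, PHO4, PHO2, from each list up to 3 genes past the test or else that with the smallest p, and the 3 genes most like the cofactors' mean. The members and lists were chosen with earlier results of these data known, as was the division of wild-type arrays. The 21 alternatives left out arrays or probe sets or changed the scaling, model, threshold or wild-type arrays. The labels call the samples biological replicates. Plots used matplotlib 3.10.9 (Python 3.11.15).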

Additional observations from a re-analysis of the deposited data

Results flagged for a closer look

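In 3 of the 28 genes examined for this, 1 wild-type array stood apart from the other 3 by most of the group's range (Dixon's test at the 95% level). Chance alone gives about 1 in 20 such groups where values are independent and normal. These genes share the same arrays and some were named by their results, so that share is no benchmark for the count. CHD1 read 9.77 in wild-type replicate 2, with the other 3 arrays between 10.03 and 10.07. SWI1 read 9.95 in wild-type replicate 1, with the others between 9.78 and 9.81. PHO8 read 12.76 in wild-type replicate 2, with the others between 12.48 and 12.52.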

How the results depend on the processing

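No cofactor gene passed under any of the 21 alternatives, with a lowest adjusted p of 0.104 (ISW1, array weights). ADA2, SPT7, INO80, ISW1, CHD1 and STH1 kept their direction in all 21, and 12 of the 210 cofactor values changed sign. Alternatives that changed only the test, its threshold or which other probe sets were compared repeat the main differences. Averaging probe sets per gene does so as well, since each cofactor gene has 1. In all of these no sign could change, so both counts overstate how stable the directions are. GCN5 ran from -0.029 to 0.051 over the fits that left out 1 array and was at -0.027 against wild-type replicates 1 and 3. SPT20 ran from -0.049 to 0.011, and was at 0.018 with array weights and 0.022 against wild-type replicates 2 and 4. ASF1 ran from -0.048 to 0.094, and was at -0.051 against replicates 1 and 3. RSC2 ran from -0.035 to 0.00069, and was at 0.023 against replicates 2 and 4. PHO4 ran from -0.048 to 0.039, and was at 0.0089 with quantile normalization repeated, 0.033 with array weights and 0.0029 against replicates 2 and 4. Without wild-type replicate 2, RTT109 was at 0.057, SUS1 at -0.12 and EAF7 at -0.063. MFA2 was at -0.011 against replicates 2 and 4. The calls of PHO5 and SWI1 ended in 15 alternatives each (adjusted p up to 0.466 and 0.383), and PHO8 passed with array weights (0.031). The cofactor median was 0.077 against replicates 2 and 4. The number of probe sets called, 11 in all, was 1 to 9 when 1 array was left out, 59 with array weights, 5 with probe sets averaged per gene, 4 without suffixed probe sets, 1 unmoderated, 1 at 0.01 and 7 against replicates 1 and 3. Without dim probe sets, HMT1 among them, limma called 0 of 4220, with 240 at an unadjusted p under 0.05. With the replicate number as a block, 1 probe set was called and ASF1 was at -0.027. Only the wild type has a replicate 4, so the block gave the same differences as leaving that array out. Deviations of same-numbered arrays from their strain means had correlations of -0.035, 0.17 and -0.51. So few values, centred within each strain, cannot decide whether the numbers pair the cultures. The causes of these shifts were not tested.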

Other observations

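The mean of the 10 cofactor genes, each centred on its own mean over the arrays, was 0.013, -0.063, 0.031 and -0.053 in wild-type replicates 1 to 4 and 0.051, 0.019 and 0.0016 in deletion replicates 1 to 3. The lowest arrays were wild-type replicates 2 and 4. The 3 other tested genes with the most similar profile were HST4, a histone deacetylase gene of the sirtuin family (Pearson r = 0.988 over 7 arrays), ERG6, a sterol methyltransferase gene (r = 0.983), and RPN1, a proteasome subunit gene (r = 0.973). They were the highest of all tested genes and share the arrays and their normalization with the cofactor genes. None of them passed between the strains, with differences of 0.16, 0.083 and 0.14 (limma adjusted p = 0.803, 0.840 and 0.827).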
